A study of Mus musculus with 2 samples.

Results

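Potassium channel genes were described across the cell types of mouse brown adipose tissue. The set was every gene symbol starting with Kcn, apart from 1 symbol, together with Abcc8 and Abcc9, the genes of the sulfonylurea receptors. The files held 95 such symbols among 22620 genes, and the 50 with at least 50 unique molecular identifiers (UMIs, each standing for 1 captured RNA molecule) summed over both libraries were kept. Measured values set only that minimum. The tissue came from mice aged 4 weeks, and its nuclei had been profiled one by one in 1 library labelled Flox and 1 labelled KO, the latter a knockout of Nfe2l1 per the series design. Nfe2l1 encodes a transcription factor known for driving proteasome genes. The sources used here give no strain, sex, number of mice in a library or driver of the deletion. Each genotype had a single library, so a difference between them has no replicate check: values stand side by side, and no test was run.

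Potassium channels let potassium ions leave or enter cells and so set the resting membrane potential, repolarise electrically active cells and hold contractile cells relaxed. Pore-forming subunits fall into voltage-gated, calcium- or sodium-activated, inward rectifier and 2-pore domain families, and regulatory subunits change how the pores open and where they go. In adipose tissue, channels of vessel wall cells take part in the control of blood flow, and those of brown adipocytes bear on the membrane potential during sympathetic stimulation.

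After filtering, 13987 nuclei were kept in the library labelled Flox and 11570 in the library labelled KO, with medians of 2254 and 2642 UMIs per nucleus. In adipocyte-like nuclei Nfe2l1 went against the label, with 131 CPM in the library labelled Flox and 313 in the library labelled KO, 2.38 times as much (2.29 to 2.48). The ratio was 1.18 (0.996 to 1.40) in endothelial-like and 1.07 (0.88 to 1.30) in fibroblast/progenitor-like nuclei. It was 1.31 (0.87 to 2.01) in macrophage/monocyte-like and 1.05 (0.65 to 1.67) in pericyte/smooth muscle-like nuclei. Smaller classes had 2.45 (1.51 to 4.05, mast-like), 3.25 (1.05 to 19.7, T/NK-like), 2.95 (0.96 to 11.5, Schwann-like) and 0.95 (0.55 to 1.53, skeletal muscle-like). The assay counts 3' ends, and the sources used here do not say which exons were removed, so a 3' count outside the deleted part would check nothing. CPM is the UMI count of a gene after scaling to the total of a class of nuclei in 1 library. Clusters were rebuilt here and named from marker genes without the channel genes, and a name ending in "-like" rests on RNA alone. Adipocyte-like nuclei made up 63.7% and 71.2% of the libraries, their adipocyte markers summed to 28685 and 31094 CPM, and Ucp1 was among the leading genes of 1 adipocyte-like cluster. Skeletal muscle-like nuclei made up 2.19% and 0.674%. Between the libraries, 65 barcode sequences were shared. All intervals are 95% exact intervals for counting error only, and they cover no spread between nuclei or mice. In every pair of values below, the library labelled Flox comes first and the library labelled KO second.

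Among the 95 symbols, 4 had no UMI, 21 had 1 to 9 and 20 had 10 to 49. Just inside the minimum were Kcnh4 with 51 and Kcnh7 with 53 UMIs. Just outside it were Kcnmb4 with 48 and Kcnj15 with 38. Families were assigned by the start of the symbol, not by the known gating of each channel. All 8 genes grouped as calcium- or sodium-activated, with symbols starting with Kcnma, Kcnn, Kcnt or Kcnu, were members. So were 20 of 30 voltage-gated genes, 8 of 13 regulators of voltage-gated channels, 5 of 15 inward rectifiers and 5 of 13 2-pore domain genes. Members also included 2 of 10 silent subunits, which form channels only together with other voltage-gated subunits. None of the 4 regulators of calcium-activated channels reached the minimum. The members held 59803 UMIs, of which 35290 and 24513 came from the 2 libraries, or 758 and 569 CPM over all barcodes. Gene spans ran from 2.86 to 1135 kb with a median of 63.2 kb, and the sources used here do not say whether reads in introns were counted. Levels are therefore compared only within a gene, between classes or libraries.

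Most members that were well counted in their class of highest CPM had a home in that 1 class, the same in both libraries. In each library, 23 members had at least 20 UMIs in their class of highest CPM, and for each of these 23 that class was the same in both. No member with that many UMIs switched class, and 27 members fell short of it. The minimum applies in the class of highest CPM, so a member highest in a small class can fall short whatever its total. Among the 27 were Kcnd2, Kcnrg and Kcnk2, with 2570, 2445 and 1603 UMIs, and for each the class of highest CPM differed between the libraries. For Kcnk2 it was adipocyte-like from 919 UMIs and mast-like from 4. The 21 called concentrated here had at least 4 times the CPM of all nuclei outside the class, in each library. Of these, 7 had their highest level in pericyte/smooth muscle-like nuclei, 4 in skeletal muscle-like, 3 in Schwann-like, 3 in macrophage/monocyte-like, 2 in endothelial-like and 2 in fibroblast/progenitor-like nuclei. The share of all genes that meet these rules is not given here, so these counts have no background beside them. None of the 21 had its highest CPM in adipocyte-like nuclei, the class with most nuclei. Kcnd2 had more than 4 times the CPM of all other nuclei there in both libraries, but small classes stood higher: Schwann-like nuclei from 7 UMIs in the library labelled Flox and skeletal muscle-like nuclei from 11 in the library labelled KO.

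**Figure D1:**
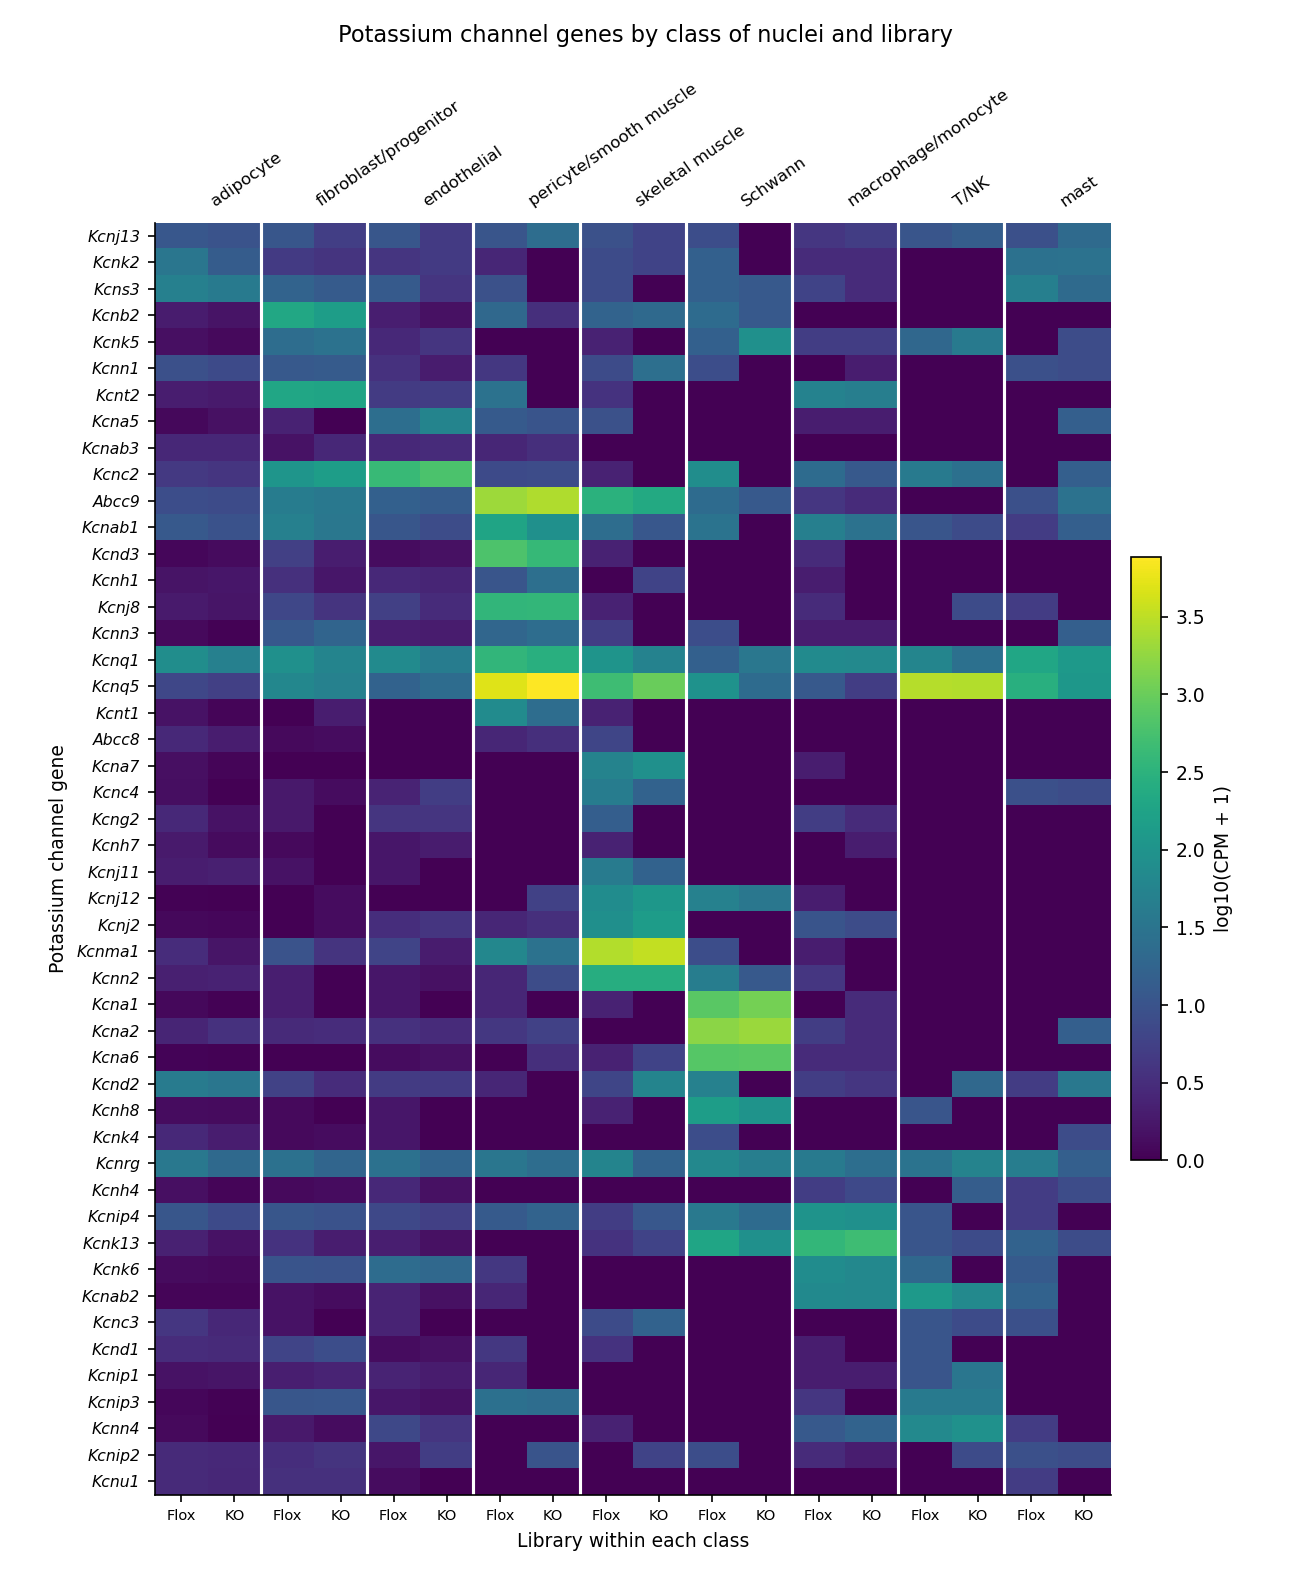
Level of 48 channel genes across the named classes of nuclei in the library labelled Flox and the library labelled KO, on a log colour scale of CPM. Genes highest in pericyte/smooth muscle-like nuclei, such as Kcnq5 at 5024 and 7693 CPM, have their brightest cells there in both libraries, and no gene in the adipocyte-like columns reaches more than 80.8 CPM (Kcnq1).

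**Figure D2:**
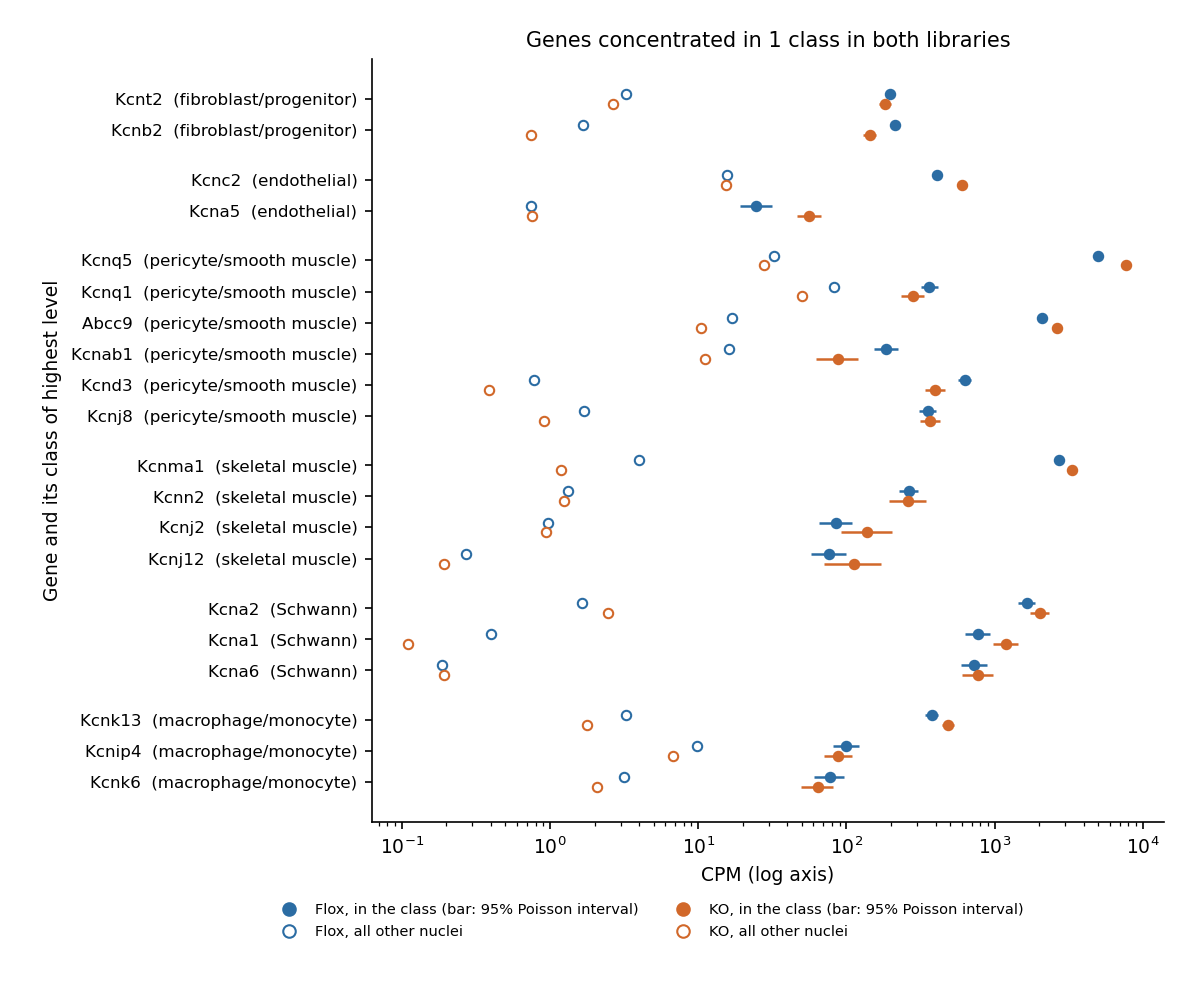
For 20 of the genes concentrated in 1 class, the CPM in that class and in all other nuclei, on a log axis, for the library labelled Flox and the library labelled KO, with 95% Poisson intervals. Each gene lies to the right of its level in other nuclei by at least 4 times in both libraries, from Kcnq1 with 363 against 83.0 CPM to Kcna6 with 732 against 0.186 CPM in the library labelled Flox.

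Vessel wall cells carried the subunits of the ATP-sensitive potassium channel that is known to relax vascular smooth muscle when energy is low. Kcnj8 (chr6:142564837-142571614, minus strand), its pore subunit, and Abcc9 (chr6:142587862-142702315, minus strand), its sulfonylurea receptor, are neighbours on the same strand of chromosome 6, 16.2 kb apart (gene positions are on mm10, from GENCODE). Abcc9 had 2079 CPM (1966 to 2196) and 2660 CPM (2508 to 2818) in pericyte/smooth muscle-like nuclei against 17.0 and 10.5 CPM in all other nuclei. Kcnj8 had 355 CPM (309 to 405) and 367 CPM (312 to 428) there against 1.70 and 0.917 CPM elsewhere. Both genes were thus high in the same class, and Abcc9 alone was also counted in skeletal muscle-like nuclei, at 306 and 231 CPM, where the deposited counts held 1 and 0 UMIs of Kcnj8. The 250 bases before the start of each gene are shown because the neighbours share their main class. They come from RefSeq on GRCm38.p6, both on the minus strand, at chr6:142571615-142571864 for Kcnj8 and chr6:142702275-142702524 for Abcc9, printed 5′ to 3′. Capitals mark matches, on either strand, to any of 3 motifs: the GC box GGGCGG, the SOX core ACAAAG and TGACNNNGC, the core of the antioxidant response element, the DNA motif that NFE2L1 and its relatives are known to bind.
Kcnj8: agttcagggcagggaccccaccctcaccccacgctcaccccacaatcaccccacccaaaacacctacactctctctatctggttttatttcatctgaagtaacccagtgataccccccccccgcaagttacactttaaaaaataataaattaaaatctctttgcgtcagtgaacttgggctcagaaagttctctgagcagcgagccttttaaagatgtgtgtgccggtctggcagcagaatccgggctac
Abcc9: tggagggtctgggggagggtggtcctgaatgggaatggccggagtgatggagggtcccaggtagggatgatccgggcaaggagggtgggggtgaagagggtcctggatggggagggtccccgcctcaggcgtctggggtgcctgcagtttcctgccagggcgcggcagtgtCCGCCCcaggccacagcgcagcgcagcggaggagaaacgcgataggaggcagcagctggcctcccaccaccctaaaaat
The Abcc9 window held 1 GC box match and the Kcnj8 window no match to any of the 3, and GC content was 66.8% against 49.2%. A match is a description of the letters and not a site.

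Several voltage-gated subunits shared this class. Kcnq5 (chr1:21398403-21961942, minus strand) encodes a slowly activating channel of the M-current family, known in vascular smooth muscle. Kcnq5 had 5024 CPM (4848 to 5204) and 7693 CPM (7434 to 7959) in pericyte/smooth muscle-like nuclei against 32.8 and 27.7 CPM in all other nuclei. A Kcnq5 UMI was found in 80.3% and 94.1% of these nuclei, at median depths of 1435 and 1686 UMIs. In adipocyte-like nuclei it was found in 1.70% and 1.47%, at medians of 2763.5 and 3095 UMIs. Kcnq1 (chr7:143106362-143427042, plus strand), whose channel is best known from the heart and epithelia, had 363 and 281 CPM against 83.0 and 49.96 CPM elsewhere, so it was counted widely and was highest here among the named classes. Its span also holds the antisense RNA gene Kcnq1ot1, whose level was not analysed here, and the sources used here do not say whether the counting used strand.

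Kcnd3 (chr3:105452330-105674002, plus strand), the pore of a fast inactivating current, was counted mainly in the vessel wall class, with 628 CPM (567 to 694) and 399 CPM (342 to 463) against 0.782 and 0.389 CPM elsewhere. That class held 93.0% and 92.5% of all its UMIs in kept nuclei. Kcnab1 (chr3:65109384-65378223, plus strand), a beta subunit that speeds the closing of voltage-gated channels, had 186 and 87.7 CPM against 16.0 and 11.1 CPM.

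Within the class, markers of pericytes and of smooth muscle split the nuclei further, and the split was made after the values were seen. The smooth muscle group was 19.7% and 13.7% of the class, or 68 and 30 nuclei. Kcnq5 was higher in the pericyte group, at 6114 and 8635 CPM, than in the smooth muscle group, at 1512 and 2885 CPM. Abcc9 followed the same order, with 2600.3 and 2916 CPM in pericytes and 399 and 1351 CPM in smooth muscle. Kcnab1 ran the other way, with 17.1 and 19.3 CPM in the pericyte group and 728 and 436 CPM in the smooth muscle group. The opposite orders of Kcnq5 and Kcnab1 held in both libraries.

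In the comparison of libraries, a gene entered with at least 50 UMIs in the class, and genes were counted at 2-fold or more. In pericyte/smooth muscle-like nuclei 0 of 9 members were at least 2-fold higher in the library labelled KO, where 0.599% of all 4505 genes were. In the other direction, 3 of the 9 were 2-fold or more below the library labelled Flox, where 1.47% of all genes were. The median log2 ratio of KO over Flox of the 9 members was -0.36, against -0.01 over all genes, with 5 below and 4 above 0. Of all genes counted in this class, 51.4% were below 0. The 3 lower ones, of which Kcnt1 was chosen after its values were seen, were Kcnt1, Kcnma1 and Kcnab1.

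Kcnab1 had 114 and 38 UMIs and a log2 ratio of -1.07 (-1.65 to -0.54). In the sub-cluster with the clearest smooth muscle markers, led by Dgkb, Myocd and Acta2 and holding 44 and 16 nuclei, Kcnab1 stood at 1096 and 1196 CPM, a log2 ratio of 0.14 (-0.56 to 0.77). In the other smooth muscle sub-cluster, with 24 and 14 nuclei, it stood at 462 and 42.7 CPM from 39 and 2 UMIs. The class ratio of Kcnab1 was -0.39 with at least 500 genes and at most 5% mitochondrial UMIs per nucleus, and -0.60 with each nucleus capped at 2 UMIs per gene.

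Kcnt1, a sodium-activated channel gene, had 46 and 10 UMIs, or 74.9 and 23.1 CPM, a log2 ratio of -1.64 (-2.85 to -0.69). Kcnma1 had 38 and 12 UMIs in this class, or 61.9 and 27.7 CPM, against 56.9 and 18.9 CPM in all other nuclei, and its log2 ratio of -1.12 came to -0.19 with the cap of 2 UMIs. Beside it, the 15 skeletal muscle markers summed to 457 and 219 CPM in the same nuclei, and their part in the result was not tested. Kcnd3 was lower in the library labelled KO, at -0.65 (-0.92 to -0.39), and most so in 1 pericyte sub-cluster, with 882 and 414 CPM.

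Kcnq5 and Abcc9 were higher in the library labelled KO, by log2 ratios of 0.61 (0.54 to 0.69) and 0.36 (0.24 to 0.47). The class held 3086 and 3335 Kcnq5 UMIs in 345 and 219 nuclei, with up to 56 and 110 in 1 nucleus. With the cap of 2 UMIs the ratios were 0.11 for Kcnq5 and 0.09 for Abcc9. These Kcnq5 totals lie well above 2 UMIs per nucleus, so the cap cannot show whether a few nuclei carried its ratio. Kcnj8 had an interval that included 0 (0.05, -0.26 to 0.35). The pericyte/smooth muscle markers summed to 10364 and 11269 CPM.

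**Figure D3:**
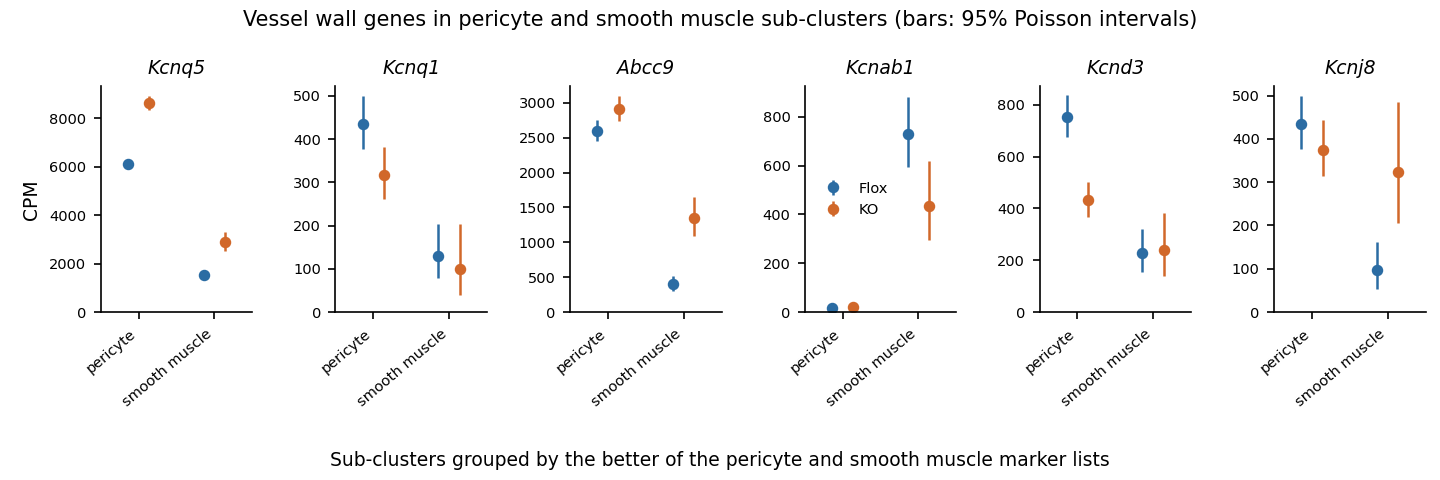
CPM of 6 channel genes of pericyte/smooth muscle-like nuclei in the pericyte group and the smooth muscle group, for the library labelled Flox and the library labelled KO, with 95% Poisson intervals. Kcnq5 and Abcc9 lie higher in the pericyte group and Kcnab1 lies higher in the smooth muscle group, in both libraries.

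Skeletal muscle-like nuclei, 306 and 78 in number, held a pair of calcium-activated channel genes, Kcnma1 and Kcnn2, and a pair of inward rectifier genes. Kcnma1 (chr14:23289431-24014491, minus strand), the pore of the large-conductance calcium-activated channel, had 2740 CPM (2621 to 2863) and 3339 CPM (3087 to 3606) there against 3.98 and 1.19 CPM in all other nuclei. Kcnn2, a small-conductance calcium-activated channel gene, had 263 and 262 CPM. The inward rectifiers of the sarcolemma, Kcnj2 (chr11:111066164-111076821, plus strand) and Kcnj12 (chr11:61022564-61071131, plus strand), had 84.9 and 139 CPM and 76.7 and 113 CPM. Between sub-clusters of muscle nuclei, a split made after the values were seen, Kcnma1 was highest in 1 led by slow-fibre genes such as Myh7 and Tnni1, with 6774 and 6095 CPM. That sub-cluster made up 13.7% and 24.4% of the muscle nuclei, or 42 and 19 nuclei. A further sub-cluster led by Myh7 and Tnnt1 had only 1068 and 193 CPM, the latter from 9 UMIs. With under 100 nuclei in 1 library the class was not counted against the background. The log2 ratios were 0.29 (0.16 to 0.41) for Kcnma1, 0.0043 (-0.48 to 0.45) for Kcnn2, 0.72 (-0.0019 to 1.38) for Kcnj2 and 0.58 (-0.22 to 1.29) for Kcnj12.

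Schwann-like nuclei, 84 and 49 in number, held 3 voltage-gated genes of the Shaker family, whose channels are known beside the nodes of Ranvier of myelinated axons. Kcna2 (chr3:107101146-107115005, plus strand) had 1651 CPM (1445 to 1879) and 2028 CPM (1745 to 2344) against 1.65 and 2.48 CPM in all other nuclei. Kcna1 (chr6:126640397-126646384, minus strand) had 775 and 1197 CPM against 0.399 and 0.110 CPM. Kcna6 (chr6:126708329-126740674, minus strand) had 732 and 776 CPM against 0.186 and 0.193 CPM. Kcna1 and Kcna6 lie 61.9 kb apart on chromosome 6, and a further Shaker gene, Kcna5, lies 105 kb beyond Kcna1 and had its highest level in endothelial-like nuclei instead. In these few nuclei the log2 ratios were 0.63 (0.23 to 1.02) for Kcna1, 0.30 (0.01 to 0.58) for Kcna2 and 0.09 (-0.38 to 0.54) for Kcna6. In Schwann-like nuclei Kcna5 had no UMI in either library, which allows up to 21.5 and 33.3 CPM.

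The 250 bases before the starts of these neighbours are shown because they lie close together and differ in main class. They are at chr6:126740675-126740924 for Kcna6 and chr6:126535556-126535805 for Kcna5, minus strand, from RefSeq on GRCm38.p6. Capitals mark matches as above.
Kcna6: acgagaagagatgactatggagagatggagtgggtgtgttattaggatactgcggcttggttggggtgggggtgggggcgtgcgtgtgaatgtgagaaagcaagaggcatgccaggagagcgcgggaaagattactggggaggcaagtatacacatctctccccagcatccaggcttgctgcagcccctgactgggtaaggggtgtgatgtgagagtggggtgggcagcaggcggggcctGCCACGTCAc
Kcna5: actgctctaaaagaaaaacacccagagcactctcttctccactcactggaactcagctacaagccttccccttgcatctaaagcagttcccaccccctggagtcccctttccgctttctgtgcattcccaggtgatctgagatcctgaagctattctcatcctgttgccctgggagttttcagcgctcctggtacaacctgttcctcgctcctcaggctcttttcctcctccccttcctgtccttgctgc
The Kcna6 window held 1 TGACNNNGC match, whose first base lay 10 bases before the start, and the Kcna5 window held no match to any of the 3 motifs.

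Endothelial-like nuclei held Kcnc2 (chr10:112271121-112467024, plus strand), the pore of a fast delayed rectifier, at 410 CPM (387 to 435) and 599.7 CPM (566 to 635), against 15.6 and 15.5 CPM in all other nuclei. Kcna5 (chr6:126532551-126535412, minus strand), a delayed rectifier gene of the vessel wall and heart, had 24.7 CPM (19.1 to 31.4) and 56.4 CPM (46.5 to 67.8) against 0.743 and 0.756 CPM. Kcnc2 was also counted in fibroblast/progenitor-like nuclei, at 105 and 142 CPM. Within the class, Kcnc2 was higher in the capillary group, at 492 and 691 CPM, than in the large-vessel group, at 113 and 216 CPM. Each sub-cluster was grouped by the better of the capillary and large-vessel marker lists. The large-vessel group took in a sub-cluster of 57 and 35 nuclei with the lymphatic endothelial markers Ccl21a, Reln and Mmrn1 among its leading genes. A sub-cluster of 73 and 45 nuclei in the capillary group scored nearly alike on the capillary and large-vessel lists, at -0.24 and -0.25.

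Between the libraries, 1 of 8 members in endothelial-like nuclei was at least 2-fold higher in the library labelled KO, where 0.302% of all 8954 genes were, and 0 of 8 were at least 2-fold lower, where 1.97% were. The 1 gene was Kcna5, with 67 and 113 UMIs and a log2 ratio of 1.19 (0.74 to 1.65). Its level was higher in the library labelled KO in both the capillary group (27.2 and 62.4 CPM) and the large-vessel group (15.4 and 31.2 CPM). The groups divide the 67 and 113 UMIs of the class, and their values are given without intervals. The large-vessel group had 282 and 158 nuclei. A Kcna5 UMI was found in 4.19% and 10.2% of the nuclei of the class. Kcnc2 had a log2 ratio of 0.55 (0.43 to 0.67), and in fibroblast/progenitor-like nuclei 0.44 (0.23 to 0.64). By sub-cluster the Kcnc2 ratio ran from -0.01 (-0.17 to 0.16), where the level was highest at 795 and 791 CPM, to 1.43 (0.87 to 2.02), where it was 141 and 381 CPM. The sub-cluster of highest level made up 21.6% and 33.8% of its first cluster, and the largest in the library labelled Flox 43.4% and 35.4%, so the make-up of the class differed between the libraries. Median UMIs per endothelial-like nucleus were 1276 and 1588, and haemoglobin and other erythroid genes in these nuclei summed to 940 and 1576 CPM, and their part in the result was not tested. The median log2 ratio of the 8 members was 0.01 against -0.05 over all genes.

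Fibroblast/progenitor-like nuclei held Kcnt2 (chr1:140246158-140612067, plus strand), a sodium-activated channel gene, at 197 and 183 CPM against 3.26 and 2.65 CPM elsewhere, and Kcnb2 (chr1:15287254-15723750, plus strand), a delayed rectifier gene, at 214 and 144 CPM against 1.67 and 0.745 CPM. Kcnb2 separated the 2 main fibroblast clusters: it stood at 305 and 218 CPM in the cluster led by Smoc2 and at 18.1 and 28.5 CPM in the cluster led by Sema3e, Pi16 and Dpp4. Kcnt2 did not separate them, with 202 and 206 CPM against 185 and 147 CPM. Kcnk5, a 2-pore domain gene named after its values were seen, had the reverse order, with 3.59 and 1.73 CPM against 65.5 and 69.6 CPM. In this class 0 of 16 members were at least 2-fold higher in the library labelled KO, where 0.524% of all 9916 genes were, and 0 of 16 were at least 2-fold lower, where 0.676% were. The members had a median log2 ratio of -0.21 against -0.02 over all genes, with 11 below and 5 above 0. Of all genes counted in this class, 54.6% were below 0. Kcnb2 had -0.57 (-0.75 to -0.40) and Kcnt2 -0.11 (-0.27 to 0.06).

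Macrophage/monocyte-like nuclei held a pair of 2-pore domain genes. Kcnk13 (chr12:99964499-100062682, plus strand), whose channel sets the resting potential of microglia, had 378 CPM (340 to 418) and 484 CPM (441 to 529) against 3.24 and 1.78 CPM in all other nuclei. Kcnk6 (chr7:29221926-29232515, minus strand), known for potassium efflux in macrophages, had 77.2 and 64.0 CPM against 3.16 and 2.09 CPM. Kcnip4 (chr5:48389502-49524907, minus strand), a calcium-binding partner of fast inactivating channels, had 99.8 and 88.4 CPM against 9.85 and 6.80 CPM. The span of Kcnip4 overlaps 5730480H06Rik on the other strand by 24.8 kb, and the 2 cannot be told apart there unless strand was used. Kcnk13 was highest in the sub-cluster led by F13a1, Lyve1 and Timd4, genes of resident macrophages, with 465 and 737 CPM. It stood at 350.5 and 347 CPM in the sub-cluster led by genes of antigen presentation, and at 100.4 and 139 CPM in that led by Atp6v0d2, St18 and Mmp12.

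In macrophage/monocyte-like nuclei 0 of 8 members were at least 2-fold higher in the library labelled KO, where 0.732% of all 6286 genes were, and 0 of 8 were at least 2-fold lower, where 0.493% were. The median log2 ratio of the members was -0.17 against -0.02 over all genes. Kcnk13 had 0.36 (0.16 to 0.56), with 0.66 (0.43 to 0.90) in the sub-cluster of resident macrophages and -0.01 (-0.46 to 0.44) in that of antigen presentation. With each nucleus capped at 2 UMIs per gene the class ratio of Kcnk13 was 0.06, and the most in 1 nucleus were 8 and 24 UMIs. Kcnip4 had -0.17 (-0.61 to 0.26) and Kcnk6 -0.27 (-0.78 to 0.23).

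Kcnq5 had a further home in T/NK-like nuclei, 72 and 100 in number, with 2807 CPM (2495 to 3148) and 2777 CPM (2518 to 3056) and a log2 ratio of -0.02 (-0.23 to 0.20). In the sub-cluster led by Dach2, Cntn1 and Il7r, with 14 and 21 nuclei, Kcnq5 stood at 7951 and 5796 CPM, and in that led by Lef1 and Slamf6 at 40.1 and 517 CPM, from 1 and 20 UMIs. Kcnq5 was also counted in skeletal muscle-like nuclei, at 480 and 986 CPM, a log2 ratio of 1.04 (0.78 to 1.30), with up to 60 UMIs in 1 nucleus of the library labelled KO.

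Adipocyte-like nuclei, 8904 and 8235 in number, held 28232784 and 29316350 UMIs, most of those in kept nuclei. Most UMIs of a widely counted gene therefore lay in this class, so a large share here does not set a member apart. The CPM beside that of all other nuclei is the comparison to read, and the class was not the only home of the members below. Kcnk2 (chr1:189207930-189402273, minus strand), a 2-pore domain channel opened by stretch and lipids, had 32.6 CPM (30.5 to 34.7) and 12.6 CPM (11.4 to 14.0) against 4.01 and 3.53 CPM in all other nuclei, and this class held 96.0% and 93.7% of its UMIs. Kcns3, a silent subunit, and Kcnd2, a fast inactivating channel gene, were named after their values were seen. Kcns3 had 49.1 and 37.6 CPM against 13.1 and 7.06 CPM elsewhere, and the class held 91.8% and 95.7% of its UMIs. In the few mast-like nuclei Kcns3 had 46.5 CPM (24.1 to 81.3) and 21.1 CPM (4.36 to 61.8), intervals that include the adipocyte-like levels. Kcnd2 had 39.7 and 32.3 CPM against 4.85 and 5.79 CPM, and the class held 96.1% and 95.9%.

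Between the libraries, channel transcripts of adipocyte-like nuclei leaned lower in the one labelled KO. Of 28 members with at least 50 UMIs, 24 had a log2 ratio below 0 and 4 above. Of the 28, 16 had an interval wholly below 0 and 1 wholly above. The share of all genes with such intervals is not given here, so these counts have no background beside them. The members' median log2 ratio was -0.36, against -0.06 over all 12341 genes, of which 59.4% were below 0. At 2-fold or more, 5 of 28 were lower in the one labelled KO, where 2.41% of all genes were, and 0 of 28 were higher, where 0.429% were. Summed over members the level was 385 and 255 CPM. Of the 28, 14 had a lower CPM in adipocyte-like nuclei than in all other nuclei in both libraries. Markers of other cell types were read in the same adipocyte-like nuclei. Below 0 were 15 of 16 counted endothelial markers (median log2 ratio -0.77, list sum 249.9 and 243 CPM) and 8 of 11 pericyte/smooth muscle markers (-0.54, 164 and 140 CPM). Of the fibroblast/progenitor markers 12 of 18 were below 0 (-0.30), though their sum was 2187 and 2712 CPM, and of the adipocyte markers 3 of 20 (0.16). The part of RNA from other cells in the members' lower ratios was not tested.

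Kcnk2 had 919 and 370 UMIs in adipocyte-like nuclei and a log2 ratio of -1.37 (-1.54 to -1.19), and a UMI was found in 6.96% and 3.16% of them. The ratio was -1.18 with nuclei thinned to 1000 UMIs and -1.27 with the cap of 2 UMIs, so Kcnk2 was past 2-fold in each. Its level in all other nuclei was close in the 2 libraries, as given above.

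A further 3 of the 5 were thinly counted, and Kcng2, a silent subunit, was chosen after its values were seen. Kcng2 had 51 and 16 UMIs (-1.70, -2.64 to -0.89) and 1.81 and 0.546 CPM. Kcnma1 had 60 and 19 UMIs (-1.69, -2.54 to -0.95), or 2.13 and 0.648 CPM, against 220.3 and 95.1 CPM in all other nuclei. Kcnk13 had 37 and 16 UMIs (-1.24, -2.21 to -0.38), or 1.31 and 0.546 CPM, against 47.4 and 73.8 CPM in all other nuclei, and its ratio was -0.86 with doublets kept. In the same adipocyte-like nuclei all 15 skeletal muscle markers had at least 50 UMIs, 12 of the 15 were lower by 2-fold or more in that labelled KO, and their sum was 222 and 90.6 CPM. The 13 macrophage/monocyte markers with at least 50 UMIs were all below 0, with a list sum of 293.5 and 247 CPM. The part of RNA from other cells in the ratios of Kcnma1, Kcnk13 and Kcng2 was not tested.

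**Figure D4:**
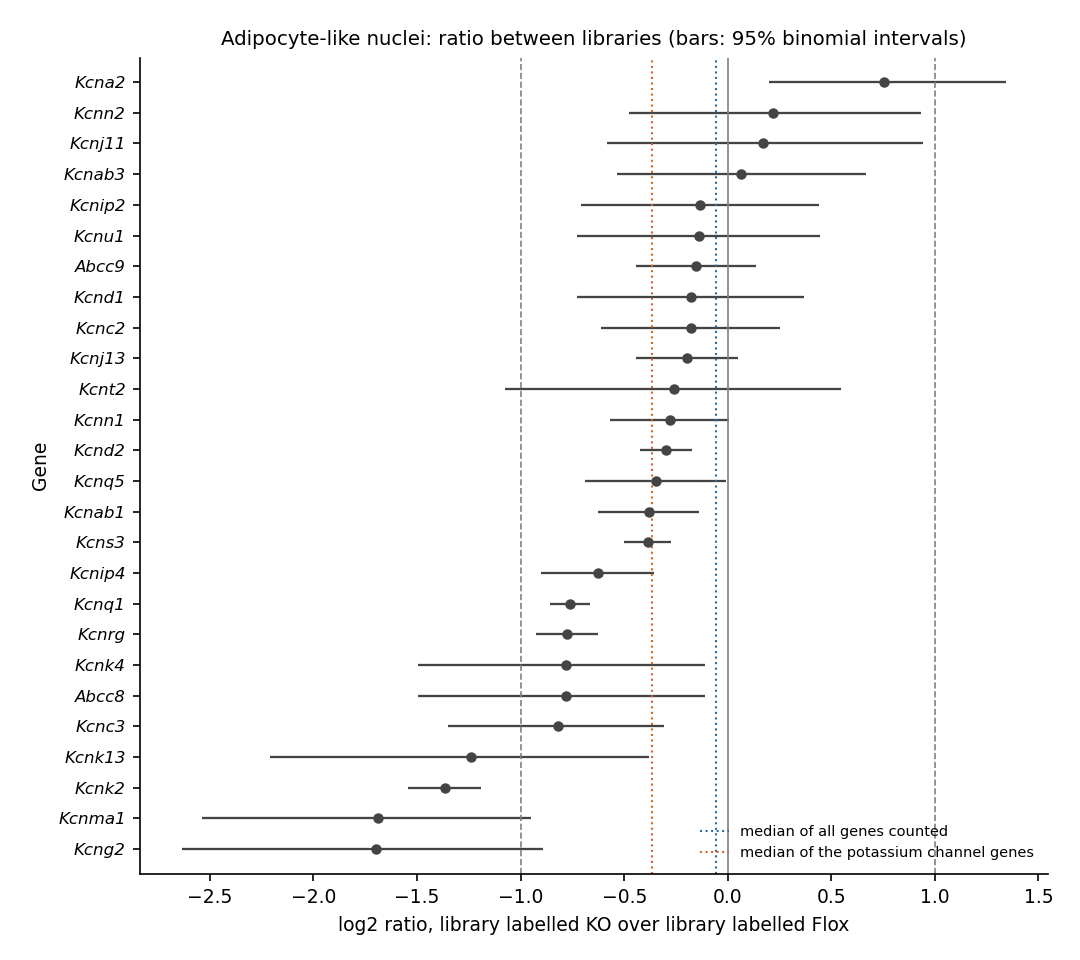
Log2 ratio of KO over Flox for channel genes with at least 50 UMIs in adipocyte-like nuclei, with 95% binomial intervals. Of the 26 genes drawn, 22 lie below 0, and Kcnk2, past 2-fold at -1.37, has a narrow interval.

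Kcnq1 was lower in the library labelled KO at -0.76 (-0.86 to -0.66), with 80.8 and 47.7 CPM, and its level in all other nuclei differed the same way, with 108 and 73.5 CPM. It was also lower in endothelial-like (-0.75, -1.14 to -0.38), fibroblast/progenitor-like (-0.65, -0.93 to -0.37) and pericyte/smooth muscle-like nuclei (-0.36, -0.70 to -0.04). In macrophage/monocyte-like nuclei the interval of Kcnq1 included 0 (-0.12, -0.63 to 0.38). Kcnrg, a regulator of voltage-gated channel assembly named after its values were seen, was also lower in several classes: -0.78 (-0.92 to -0.63) in adipocyte-like, -0.67 (-1.31 to -0.08) in endothelial-like and -0.63 (-1.16 to -0.14) in fibroblast/progenitor-like nuclei. Kcnrg stood at 34.9 and 20.4 CPM in adipocyte-like nuclei and 32.1 and 20.2 CPM in all others, so these levels were close. Kcnab1 had intervals below 0 in adipocyte-like (-0.38, -0.63 to -0.14) and fibroblast/progenitor-like nuclei (-0.50, -0.87 to -0.14) as well. The 1 member with an interval above 0 in adipocyte-like nuclei was Kcna2, at 1.49 and 2.52 CPM (0.76, 0.20 to 1.35), against 26.4 and 28.1 CPM in all other nuclei.

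Adipocyte-like nuclei fell into 4 clusters, and the shares of these differed between the libraries. The cluster led by Kng1, Perm1 and Ucp1 held 46.0% and 63.2% of them, the cluster led by heat shock genes such as Hspa1b held 24.0% and 24.0%, the cluster led by interferon-induced Gbp genes held 25.5% and 9.39%, and the cluster led by Trhde and Slc7a10 held 4.42% and 3.38%. Kcnk2 was lower in the library labelled KO in each of the 4. It stood at 22.5 and 10.3 CPM in the Ucp1 cluster (-1.12, -1.42 to -0.82) and at 32.0 and 10.9 CPM in the heat shock cluster (-1.56, -1.89 to -1.24). In the Gbp cluster Kcnk2 stood at 32.4 and 3.01 CPM, from 242 and 10 UMIs (-3.36, -4.51 to -2.53). Its level was highest in the Slc7a10 cluster, at 123 and 90.6 CPM, where the ratio was nearest 0 (-0.44, -0.82 to -0.07).

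Kcns3 was lower in the library labelled KO in 3 clusters, by -0.39 to -0.52, and higher in the Slc7a10 cluster, at 27.5 and 55.1 CPM (0.99, 0.37 to 1.65). Kcnd2 had -0.79 (-0.97 to -0.60) in the Ucp1 cluster and 0.52 (0.17 to 0.87) in the Gbp cluster. The class ratios of Kcns3, -0.39 (-0.50 to -0.27), and of Kcnd2, -0.30 (-0.43 to -0.17), thus averaged over clusters with opposite signs.

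**Figure D5:**
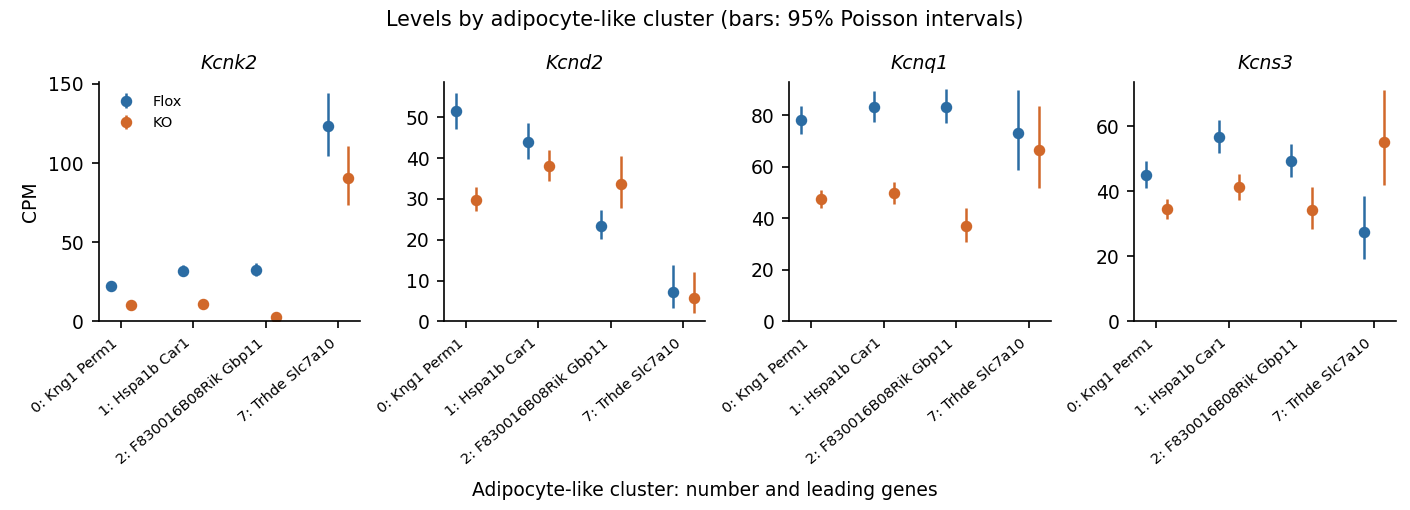
CPM of Kcnk2, Kcnd2, Kcnq1 and Kcns3 in the 4 adipocyte-like clusters, for the library labelled Flox and the library labelled KO, with 95% Poisson intervals. Kcnk2 lies lower in the library labelled KO in all 4 clusters and is highest in the cluster led by Trhde and Slc7a10, at 123 and 90.6 CPM.

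The second ATP-sensitive pair, Kcnj11 (chr7:46093953-46100764, minus strand) and Abcc8 (chr7:46104523-46180033, minus strand), known from pancreatic beta cells and, for Kcnj11, skeletal muscle, was thinly counted. The genes lie 3.76 kb apart. Kcnj11 had 29 and 3 UMIs in skeletal muscle-like nuclei, or 39.7 and 15.4 CPM, and 29 and 34 UMIs in adipocyte-like nuclei, or 1.03 and 1.16 CPM. Abcc8 had 50 and 30 UMIs in adipocyte-like nuclei, or 1.77 and 1.02 CPM, a log2 ratio of -0.78 (-1.50 to -0.11). In the library labelled Flox, Abcc8 had its highest CPM in skeletal muscle-like nuclei, as Kcnj11 had, but at 5.48 CPM from 4 UMIs. In the library labelled KO, Abcc8 was highest in pericyte/smooth muscle-like nuclei, at 2.31 CPM from 1 UMI. These counts are too few to say whether Kcnj11 and Abcc8 share a class of high level, as Kcnj8 and Abcc9 did.

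The promoter table held 35 of the 50 members, with 53 windows of 250 bases. TGACNNNGC was found in 7 of the 53 windows (13.2%), against 10.2% of all 32851 windows. The genes were Kcna6, Kcnab1, Kcnab2, Kcnc4, Kcnn1 and Kcns3. GGGCGG was found in 22 of 53 (41.5%) against 32.7%, and ACAAAG in 5 of 53 (9.43%) against 16.5%. Shown with matches in capitals are a window of Kcnab1, whose ratio in vessel wall nuclei passed 2-fold, and a window of Kcns3. Kcns3 is the member with its highest level in adipocyte-like nuclei in both libraries. Kcnab1 has 3 starts and Kcns3 has 2, and the window shown for each was picked because it held TGACNNNGC. Their other windows held no such match. The windows shown are chr3:65108764-65109013 on the plus strand for Kcnab1 and chr12:11150374-11150623 on the minus strand for Kcns3.
Kcnab1: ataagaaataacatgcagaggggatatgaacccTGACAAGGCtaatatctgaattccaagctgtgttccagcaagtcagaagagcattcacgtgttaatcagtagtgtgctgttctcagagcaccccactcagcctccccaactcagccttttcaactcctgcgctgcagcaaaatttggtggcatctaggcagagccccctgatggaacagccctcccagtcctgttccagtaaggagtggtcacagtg
Kcns3: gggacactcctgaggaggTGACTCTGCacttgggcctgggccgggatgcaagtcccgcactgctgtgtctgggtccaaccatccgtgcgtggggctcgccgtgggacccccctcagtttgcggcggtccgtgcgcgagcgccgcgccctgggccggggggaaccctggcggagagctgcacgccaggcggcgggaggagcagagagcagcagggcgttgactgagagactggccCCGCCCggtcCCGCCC
The Kcns3 window shown also held 2 GC box matches. Of the 5 members past 2-fold in adipocyte-like nuclei, 3 had windows in the table (Kcnk2, Kcnma1 and Kcnk13), and none of these held TGACNNNGC.

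Other genes that set ion flow were read from lists beside the channels. In adipocyte-like nuclei 0 of 6 counted sodium pump genes, 0 of 8 potassium-chloride cotransport genes and their kinases, 0 of 7 channel partners and 0 of 8 voltage-gated calcium channel genes were 2-fold apart in either direction, nor were any of the 3 counted voltage-gated sodium and HCN channel genes, where 2.41% of all genes were lower and 0.429% higher. Of 10 intracellular and store calcium channel genes 1 was 2-fold lower, Ryr1, the muscle calcium release channel, at 2.98 and 1.02 CPM against 172 and 56.4 CPM in all other nuclei. Of 14 chloride and anion channel genes 1 was 2-fold lower, Lrrc8e, chosen after its values were seen, with 40 and 17 UMIs (-1.26, -2.20 to -0.44). The median log2 ratios were 0.02 for the pump genes, -0.09 for cotransport, -0.02 for partners, -0.0060 for intracellular calcium channels, -0.14 for chloride and anion channels, -0.33 for voltage-gated calcium channels and -0.46 for voltage-gated sodium and HCN channels, beside -0.36 for the potassium channel genes. In pericyte/smooth muscle-like nuclei 1 of 10 counted chloride and anion channel genes was 2-fold higher, where 0.599% of all genes were, and 0 were 2-fold lower. It was Lrrc8b, a subunit of the volume-regulated anion channel chosen after its values were seen, at 76.5 and 182 CPM (1.25, 0.71 to 1.80). The subunits Lrrc8c (-0.15, -0.43 to 0.13) and Lrrc8d (-0.16, -0.56 to 0.23) had intervals that included 0 there.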

How the data were processed

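Single-nucleus RNA of mouse brown adipose tissue had been captured with 10x Genomics 3' v3 chemistry in 1 library labelled Flox and 1 labelled KO. The authors deposited a matrix of UMI counts for each library. Cell Ranger 5.0.0 is named in the file headers, and mm10 in the submitters' processing notes. The libraries held 46528077 and 43080725 UMIs in 16145 and 13030 barcodes, each barcode with at least 500 UMIs. The sources used here do not give the reference annotation, the handling of introns or the use of strand. Gene positions came from GENCODE vM21 (mm10) by gene ID, and promoter windows from RefSeq on GRCm38.p6, with 15 members not in that table.

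Barcodes with under 200 genes or over 10% mitochondrial UMIs were removed (99 and 129), and then the highest Scrublet doublet scores, at 0.8% per 1000 barcodes (2059 and 1331). Each nucleus was scaled to 10000 counts, followed by a log transform. Variable genes (2000, without the members) were scaled, and Leiden clustering at resolution 0.5 ran on 15 neighbours in 30 principal components (scanpy 1.11.5, leidenalg 0.10.2, igraph 0.11.9). Clusters other than adipocyte-like ones with at least 100 nuclei were clustered again. Haemoglobin genes were left out when leading genes were ranked. This recipe was settled after cluster make-up had been seen, and before member levels by class were read.

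UMIs were summed per class and library. Class levels are given where each library had at least 30 nuclei. Log2 ratios of KO over Flox add 0.5 UMI and were compared where each library had at least 100 nuclei, for genes with at least 50 UMIs. A 1 sample per group design gives no test. The members and lists were chosen with earlier results of these data known. Genes were named where concentrated in 1 class, where at least 2-fold apart with at least 100 UMIs, or by name (Kcnk2, Kcnj8, Abcc9, Kcnj11, Abcc8, Kcnma1 and Kcnq1). Others are said to be chosen after their values were seen. A few symbols are not reported here. The counting was tested on simulated data. Alternatives covered filters, doublets, resolution, TMM factors (edgeR 4.0.16), thinning, caps and minimums, and 2 clusterings were added after seeing the data. Figures were drawn in matplotlib 3.10.9, and intervals came from SciPy 1.17.1, with pandas 2.3.3, NumPy 2.4.6 and scikit-learn 1.9.0 in Python 3.11.15.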

Additional observations from a re-analysis of the deposited data

Results flagged for a closer look

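Among 15 members with a ratio in more than 1 compared class, 2 had intervals on opposite sides of 0, and this was looked for after the levels had been seen. The share of all genes with such opposite intervals is not given here, so this count has no background beside it. Kcnk13 had a log2 ratio of 0.36 in macrophage/monocyte-like nuclei and -1.24 in adipocyte-like nuclei, the latter from 37 and 16 UMIs. Kcnq5 had 0.61 in pericyte/smooth muscle-like nuclei and -0.35 in adipocyte-like nuclei, from 163 and 133 UMIs there. The adipocyte-like ratio of Kcnq5 turned to 0.27 with nuclei thinned to 1000 UMIs, and the pericyte/smooth muscle-like ratio came to 0.11 with the cap of 2 UMIs. With 1 library per genotype the difference between classes was not tested for either gene.

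Nuclei in no named class, which enter no comparison, held Kcnk13 at 137.2 and 183.9 CPM (33 and 32 UMIs), above the limit that a count of 0 allows. Nearly all of these UMIs, 33 and 31, lay in the sub-cluster led by Lyz1, Ear2 and Cd226, with 53 and 24 nuclei, where Kcnk13 stood at 295 and 410 CPM.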

How the results depend on the processing

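No paired analysis was possible because each genotype has 1 library, and for the same reason no replicate could be left out. Over 13 settings, 2 of them added after seeing the data, 124 of 148 counts stayed within 1.5 times the reported count and 24 moved. Of 611 log2 ratios, 587 stayed within the reported counting interval, 23 left it without turning an interval that excluded 0, and the ratio of Kcnq5 in adipocyte-like nuclei turned from -0.35 to 0.27 with nuclei thinned to 1000 UMIs. Genes concentrated in 1 class numbered 16 to 23. Counts of members at least 2-fold apart that moved were as follows, and the cause was not tested. With doublets kept, 1 was lower in fibroblast/progenitor-like and 3 in macrophage/monocyte-like nuclei. Of all genes counted, 75 of 10014 and 190 of 8185 were lower there. At resolution 0.3, 2 were higher in endothelial-like and 1 lower in fibroblast/progenitor-like nuclei, beside 40 of 8485 and 64 of 9996 genes. With members among the variable genes, 1 was lower in fibroblast/progenitor-like nuclei, beside 67 of 10007 genes. With first clusters only and genes not scaled, an added setting, 2 were higher and 1 lower in endothelial-like nuclei, beside 29 and 196 of 8973 genes. In that setting 1 was lower in fibroblast/progenitor-like and 1 in pericyte/smooth muscle-like nuclei, beside 60 of 9988 and 47 of 4216 genes. Thinned nuclei, with fewer members counted, gave 1 lower in each of adipocyte-like, macrophage/monocyte-like and pericyte/smooth muscle-like nuclei. Of all genes counted, 164 of 10673, 15 of 3156 and 20 of 2018 were lower in these classes. At a minimum of 20 UMIs, 1 was higher in adipocyte-like nuclei, beside 101 of 13646 genes. In endothelial-like nuclei 2 were lower, beside 415 of 10807 genes, and in fibroblast/progenitor-like nuclei 4, beside 217 of 11574. At 1 UMI in each library, adipocyte-like nuclei had 1 higher and 13 lower, beside 353 and 1026 of 16206 genes. Endothelial-like nuclei had 3 and 7, beside 452 and 878 of 13623, and fibroblast/progenitor-like 1 and 7, beside 539 and 572 of 14228. Macrophage/monocyte-like nuclei had 2 lower, beside 769 of 12253, and pericyte/smooth muscle-like 3 higher, beside 819 of 11619. With a cap of 2 UMIs, 1 was lower in pericyte/smooth muscle-like nuclei, beside 23 of 4390 genes. T/NK-like and skeletal muscle-like nuclei had under 100 nuclei in 1 library, so the planned counts there were not computed.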
